A study of Mus musculus with 4 samples.

Results

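The ATF4 amino acid response and the unfolded protein response were followed through 39 genes in mouse primary osteoblasts treated with BMP2, LOXL2 or both. A gene was a member if a non-control probe of the array carried its symbol, and all 39 listed symbols were found among the 24041 genes tested. They fall into an ATF4 arm of 20 genes (transcription factors, stress targets, enzymes of amino acid and one-carbon synthesis, and amino acid transporters) and an ER arm of 19 genes (chaperones and disulphide isomerases of the endoplasmic reticulum, and Xbp1 with genes of ER-associated degradation, ERAD).

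The cells, entered as pre-osteoblasts under cell type, were grown in 10% serum and treated for 72 h. The 4 treatments were 200 ng/ml BMP2 plus 4 µg/ml LOXL2, BMP2 alone, LOXL2 alone, and neither protein (untreated), with 1 single-colour array each. No genotype or strain is given, no treatment was replicated, and whether the 4 cultures were separate preparations is not stated. BMP2 is a growth factor that drives bone and cartilage formation. LOXL2, an extracellular enzyme of the lysyl oxidase family, cross-links collagen.

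Cells short of amino acids, or with unfolded protein in the endoplasmic reticulum, phosphorylate the initiation factor eIF2 through the kinases GCN2 and PERK. This slows translation in general but favours translation of ATF4, which then induces transporters, synthetic enzymes and further transcription factors. In parallel, the ER sensors IRE1 and ATF6 act through spliced XBP1 and cleaved ATF6 on chaperones and ERAD genes. In osteoblasts ATF4 is known for its part in amino acid uptake and collagen synthesis. The arrays measured mRNA, and neither ATF4 protein, eIF2 phosphorylation nor Xbp1 splicing.

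Both arms were first read for the response elements known for them. Windows of 300 bases (250 before and 50 after each RefSeq gene start, GRCm38.p6) were found for 36 of the 39 members, 40 windows in all. Those of Slc7a5, Hyou1 and Manf were not analysed here. The C/EBP-ATF response element, TGATGNAA on either strand, occurred in the windows of 8 members (Trib3, Atf3, Vldlr, Chac1, Asns, Nupr1, Slc7a11 and Herpud1), against 3.97% of 32851 windows of all genes. Of these 8 members, 7 belong to the ATF4 arm. The ER stress response element, CCAAT and CCACG with 9 free bases between them on either strand, occurred in 8 members, all of the ER arm (Calr, Canx, Hsp90b1, Hspa5, Pdia6, Dnajc3, Creld2 and Syvn1), against 0.119% of all windows. Its second form, ERSE-II, ATTGG and CCACG with 1 free base between them on either strand, occurred in Herpud1 and Dnajb11 and in 0.0365% of all windows. No sites overlapped within a member's window. A match describes letters and not binding. The members were listed as known genes of these pathways, so an excess of matches over all windows is not independent evidence. For the ATF4 arm, the sites of 4 genes that rose with BMP2 and of 2 that were not called are shown with 10 bases on each side, on the strand that reads TGATGNAA, with the fixed letters of the motif in capitals.

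Trib3: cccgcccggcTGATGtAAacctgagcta

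Atf3: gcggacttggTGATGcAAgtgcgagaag

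Vldlr: ctaggagcgcTGATGcAActattgctgc

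Chac1: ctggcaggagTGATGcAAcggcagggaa

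Asns: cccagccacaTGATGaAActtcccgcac

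Nupr1: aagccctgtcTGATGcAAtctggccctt

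These stretches lie at chr2:152344029-152344056 (Trib3, plus strand printed), chr1:191183426-191183453 (Atf3, plus), chr19:27216810-27216837 (Vldlr, minus), chr2:119351039-119351066 (Chac1, minus), chr6:7693215-7693242 (Asns, minus) and chr7:126625563-126625590 (Nupr1, plus). The Trib3 motif begins 14 bases after the gene start, while the other 5 begin before it. The free base of the motif was c in Atf3, Vldlr, Chac1 and Nupr1, t in Trib3 and a in Asns. For the ER arm, the sites of 3 genes that rose and 3 that were not called are shown in the same way, with the fixed letters in capitals.

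Calr: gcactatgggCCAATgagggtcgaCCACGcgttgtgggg

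Canx: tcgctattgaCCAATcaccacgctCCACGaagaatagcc

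Pdia6: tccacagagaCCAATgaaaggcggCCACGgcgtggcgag

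Hspa5: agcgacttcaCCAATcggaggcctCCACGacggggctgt

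Creld2: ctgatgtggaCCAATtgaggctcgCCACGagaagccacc

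Syvn1: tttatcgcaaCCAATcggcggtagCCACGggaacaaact

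They lie at chr8:84847065-84847103 (Calr, plus), chr11:50325790-50325828 (Canx, minus), chr12:17266481-17266519 (Pdia6, plus), chr2:34772015-34772053 (Hspa5, plus), chr15:88819510-88819548 (Creld2, minus) and chr19:6046522-6046560 (Syvn1, plus). In each set of 8 members with a motif, 4 rose with BMP2 and 4 were not called, where 19 of all 39 members and 10.3% of all genes rose. A link between motif and BMP2 response was not tested.

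Values are scaled intensities in arbitrary units, that is, processed signals brought to the same 75th percentile on every array, and they compare arrays for 1 probe but not genes with each other. The BMP2 effect is the log2 difference between the 2 arrays with and the 2 arrays without BMP2, fitted with limma beside LOXL2 and given with its SE. A gene rose or fell where its adjusted p was under 0.05. The 4 arrays were alike, with 60.4% to 62.2% of spots well above background. All 39 members were well above background on every array. Each member was read from a single spot per array except Creld2, with 10. The spot error, taken as the median SD over probes printed 10 times, was 0.0642 to 0.0669 on the log2 scale.

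With BMP2, 19 of the 39 members rose and 0 fell, where 10.3% of all genes rose and 9.97% fell. The members were chosen with earlier results of these data known, so no excess over all genes given here is independent evidence. The largest effects were in Trib3, Atf3 and Vldlr of the ATF4 arm, and in Pdia4 and Calr of the ER arm. The median effect was 0.59 over the members and 0.02 over all genes tested. The ATF4 arm had a median of 0.71 with 11 of 20 genes called, and the ER arm 0.44 with 8 of 19. The effect was above 0 for every member except Psat1 (38 of 39, against 52.4% of all genes), though with quantile normalization Creld2 and Syvn1 were below 0 as well. For 35 members both arrays with BMP2 lay above both arrays without it, against 38.1% of all genes. The ranges overlapped for Slc7a11, Creld2 and Syvn1, and Psat1 alone had both below (32.8% of all genes did). Over all genes, the ranges overlapped for 6990 of 24041. Groups that do not overlap, as named for single genes below, were therefore the common case. Calls rest on 1 residual degree of freedom, and with no filter on dim probes 0 members were called. In that limma fit 25 members, and 9259 of 35077 genes, had an unadjusted p under 0.05. With quantile normalization 7 genes of the ATF4 arm and 5 of the ER arm were called, and Atf4, Atf5, Chac1, Shmt2, Hsp90b1, Canx and Pdia6 were not. In that setting 7.96% of all genes rose, and the median effect over the members was 0.44.

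**Figure D1:**
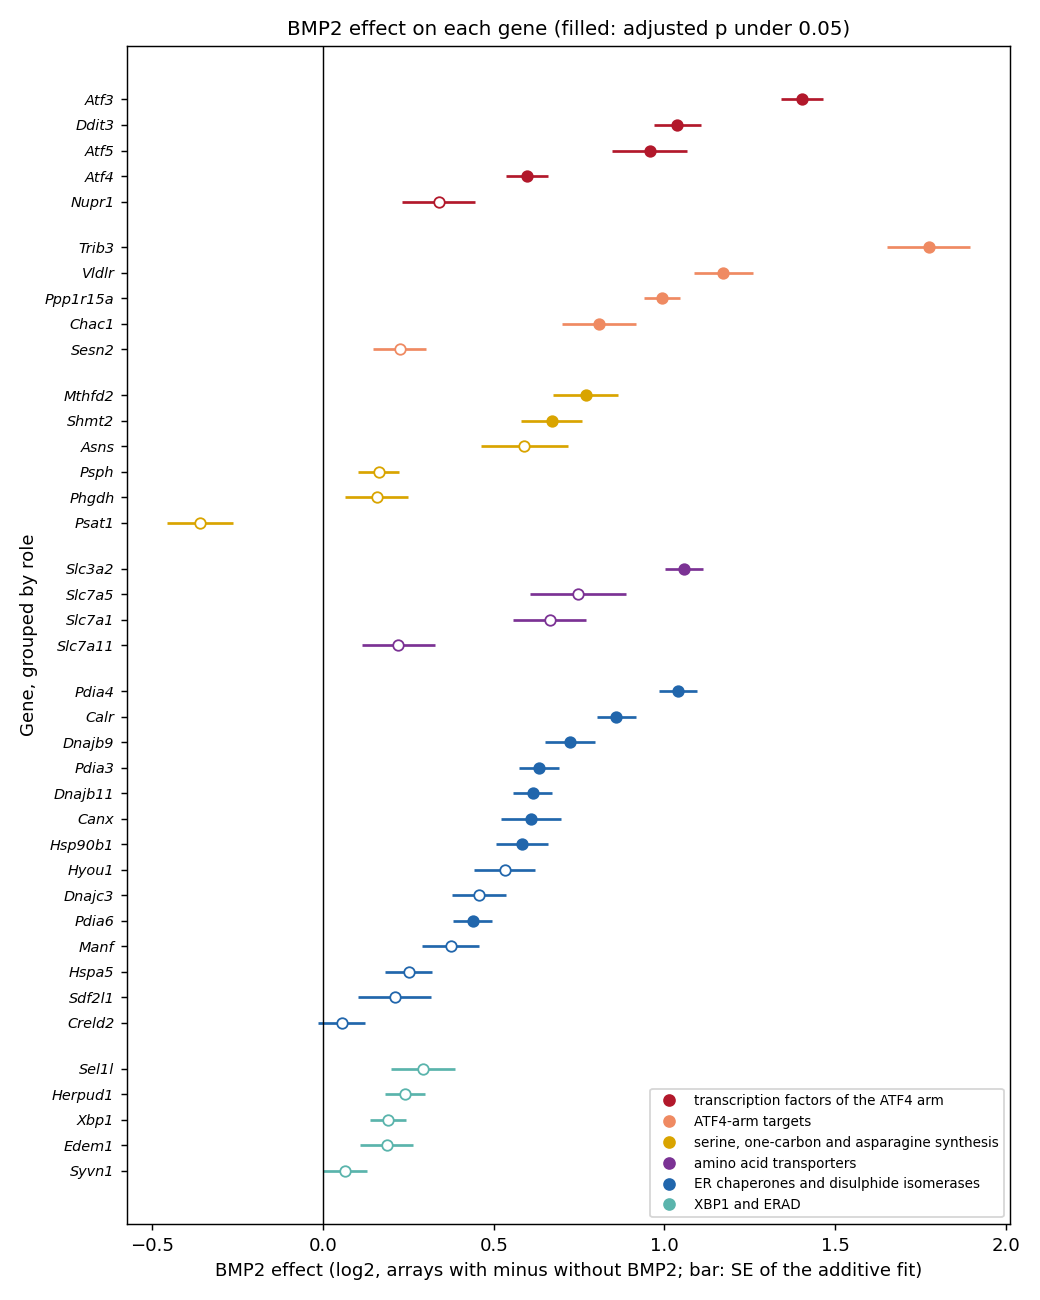
Fitted BMP2 effect of each of the 39 genes (log2, arrays with minus arrays without BMP2) with its SE as a bar, grouped by role, filled where the adjusted p was under 0.05. The 19 filled points lie to the right of 0, none of the 5 XBP1 and ERAD genes is filled, and Psat1 is the one point to the left of 0.

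Some markers of osteoblasts and of other cell types moved with BMP2 on the same arrays. Over all genes, 10.3% rose and 9.97% fell. All 8 osteoblast markers were well above background on every array. Of these, Bglap rose 12.1-fold, Ibsp 5.76-fold, Sp7 4.68-fold and Alpl 3.65-fold, and the other 4 were not called. The summed intensity of the 8 ran from 778354 to 816310. Sums here and below lean on the brightest probes. With BMP2 plus LOXL2, Col1a2 gave 444810 of 778354, Csf1r 5465 of 6923 (macrophage) and Kdr 21270 of 21544 (endothelial). All 8 chondrocyte markers rose, with sums of 274382 with BMP2 plus LOXL2 and 180525 with BMP2, against 46869 with LOXL2 and 40303 untreated. Of these, Matn1 was not well above background on either array without BMP2, nor Col10a1 on the untreated one. Of 9 macrophage markers 3 fell, with sums of 6923 and 7165 with BMP2, against 8480 and 9152 without it, and Ptprc was not well above background with both proteins. Of 5 endothelial markers 2 fell, Emcn did not pass the filter on dim probes, and Tek was not well above background with BMP2, with sums of 21544 and 22593 with BMP2, against 22297 and 22966 without it. None of the 5 adipocyte markers was called, with sums of 6490 and 6452 with BMP2, against 5413 and 5727 without it. Adipoq was not well above background without BMP2, nor Plin1 and Cfd on the BMP2 and untreated arrays. The part of these shifts in the members' values was not tested, and in RNA from whole cultures a change in the cells present and a change in RNA per cell cannot be told apart.

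Among the 5 transcription factors of the ATF4 arm, 4 rose. Atf4 itself, the factor that gives the arm its name, had intensities of 213493 with BMP2 plus LOXL2 and 201603 with BMP2, against 146270 with LOXL2 and 128296 untreated. Its BMP2 effect was 0.60 ± 0.06 (limma adjusted p = 0.0333), and a second probe gave 0.65. Both BMP2 arrays were above both others, and the untreated array was lowest. Atf3, a repressor induced early in many stresses, had 842 with BMP2 plus LOXL2 and 721 with BMP2, against 307 with LOXL2 and 283 untreated. It rose by 1.40 ± 0.06 (adjusted p = 0.0206, limma), or 2.64-fold, and the groups were far apart. Atf3 was one of 2 members, with Ppp1r15a, whose BMP2 difference was larger under LOXL2 (1.46) than without it (1.35).

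Ddit3, which encodes the pro-apoptotic factor CHOP, had 12894 with BMP2 plus LOXL2 and 11557 with BMP2, against 6602 with LOXL2 and 5353 untreated. It rose by 1.04 ± 0.07 (adjusted p = 0.0248), and its groups did not overlap. Atf5, an ATF4 relative that is also under translational control, had 193221 and 191226 on the same BMP2 arrays, against 111292 and 88107 without BMP2. It rose by 0.96 ± 0.11 (adjusted p = 0.0376), with near-equal values on the 2 BMP2 arrays and a wider gap between LOXL2 and untreated. Nupr1, a small stress-induced chromatin protein, was not called, with an effect of 0.34 ± 0.11 (adjusted p = 0.129). On mm9, the build of the array files, the Atf4 probe lies at chr15:80087902-80087961, that of Atf3 at chr1:192994547-192994606, and that of Ddit3 on chromosome 10 from 126732518 to 126732821, a stretch of 304 bases. Their places in exons or untranslated regions were not analysed here.

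Of the 5 stress targets, 4 rose, each by at least 1.5-fold in both pairs of arrays. Trib3, a pseudokinase that inhibits AKT and ATF4 itself, had 78816 with BMP2 plus LOXL2 and 74295 with BMP2, against 26156 with LOXL2 and 19139 untreated. Its effect of 1.77 ± 0.12 (adjusted p = 0.0255), or 3.42-fold, was the largest of the 39 genes. The BMP2 arrays were close to each other, and LOXL2 lay above untreated by 0.45. The Trib3 probe is at chr2:152163161-152163220 on mm9. Vldlr, a lipoprotein receptor, had 20235 and 19503 with BMP2 (with and without LOXL2), against 9715 with LOXL2 and 7993 untreated. It rose by 1.17 ± 0.09 (adjusted p = 0.0262), and a second probe gave 1.66. Neither probe had overlapping groups.

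Ppp1r15a, which encodes GADD34, the phosphatase subunit that removes the phosphate from eIF2, had 17105 with BMP2 plus LOXL2 and 14856 with BMP2, against 8541 with LOXL2 and 7507 untreated. It rose by 0.99 ± 0.05 (adjusted p = 0.0219), nearly alike in the 2 pairs. Chac1, a glutathione-degrading enzyme, had 29801 and 28649 with BMP2, against 18969 with LOXL2 and 14674 untreated. It rose by 0.81 ± 0.11 (adjusted p = 0.0431). Sesn2, which restrains mTORC1 when leucine is short, had an effect of 0.23 ± 0.08 (adjusted p = 0.144), and its highest array was BMP2 alone.

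**Figure D2:**
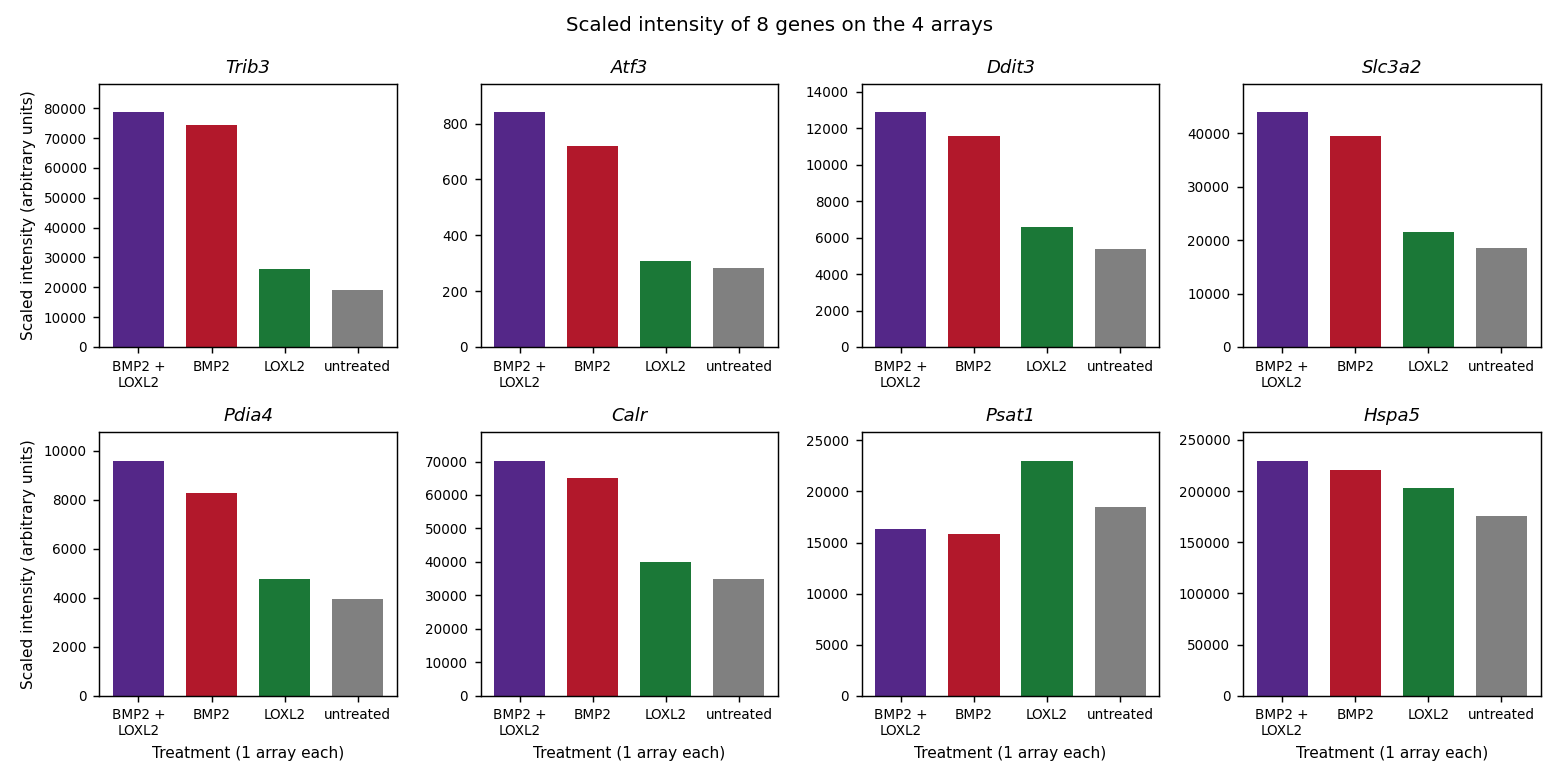
Scaled intensity (arbitrary units, bars from 0) of 8 genes on the 4 arrays, 1 array per treatment, so no error bar is given. Trib3, Atf3, Ddit3, Slc3a2, Pdia4 and Calr are high on both arrays with BMP2, Psat1 is highest with LOXL2 at 23029, and Hspa5 runs between 176122 and 229888.

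The 6 genes of serine, one-carbon and asparagine synthesis were split, with 2 called and a median effect of 0.38. Both called genes act in the mitochondrial folate pathway. Mthfd2 had 10151 with BMP2 plus LOXL2 and 9458 with BMP2, against 6520 with LOXL2 and 5065 untreated. It rose by 0.77 ± 0.10 (adjusted p = 0.04). Shmt2, which splits serine into glycine and a one-carbon unit, had 10815 and 10217 with BMP2, against 7383 with LOXL2 and 5906 untreated. It rose by 0.67 ± 0.09 (adjusted p = 0.0429), and neither gene had overlapping groups.

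Asns, asparagine synthetase and a classical amino acid response target, had 59601 with BMP2 plus LOXL2 and 58312 with BMP2, against 45237 with LOXL2 and 33915 untreated. Its groups did not overlap, but with an effect of 0.59 ± 0.13 it was not called (adjusted p = 0.0749). With 1 of 8 alternative settings, normexp background correction, it was called as rising (limma adjusted p = 0.0111). The BMP2 difference was 0.78 without and 0.40 under LOXL2, and this gap enlarges the SE of the additive fit. The 3 enzymes that make serine from a glycolytic intermediate did not move together. Phgdh, the first of them, had an effect of 0.16 ± 0.09 (adjusted p = 0.297), and Psph, the last, 0.16 ± 0.06 (adjusted p = 0.162).

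Psat1, the middle enzyme of serine synthesis, ran the other way. Its intensity was 16363 with BMP2 plus LOXL2 and 15790 with BMP2, against 23029 with LOXL2 and 18491 untreated. Both BMP2 arrays were below both others, with an effect of -0.36 ± 0.10 that was not called (adjusted p = 0.0991), and a second probe gave -0.34. Normexp background correction and eBayes with trend and robust settings each called it as falling. The LOXL2 array was its highest, and Psat1 was the one member for which the untreated array was not the lowest.

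Of the 4 amino acid transporters, 1 rose, while the median effect was 0.71. Slc3a2, the heavy chain (CD98) that pairs with several light chains, had 43984 with BMP2 plus LOXL2 and 39411 with BMP2, against 21598 with LOXL2 and 18501 untreated. It rose by 1.06 ± 0.06 (adjusted p = 0.0219), with 1.09 without and 1.03 under LOXL2. Its light chain Slc7a5 (LAT1, for large neutral amino acids) had an effect of 0.75 ± 0.14 (adjusted p = 0.0628), and its dimmer second probe gave 0.12. The cationic amino acid transporter Slc7a1 missed the threshold least of the 20 members not called, with 0.66 ± 0.11 (adjusted p = 0.0524). It was called with 4 of 8 alternative settings, and Slc7a5 with 3. For the cystine carrier Slc7a11, dim at 112 and 93.2 with BMP2, the LOXL2 array lay between these, the untreated array was at 72.0, and the effect was 0.22 ± 0.11 (adjusted p = 0.234).

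In the ER arm, 8 of 14 chaperones and disulphide isomerases rose, with a median effect of 0.56. The calnexin cycle folds glycoproteins, and its 3 members Calr, Canx and Pdia3 were all called. Calr had 70299 with BMP2 plus LOXL2 and 64940 with BMP2, against 39863 with LOXL2 and 34803 untreated, and rose by 0.86 ± 0.06 (adjusted p = 0.0252). Canx, its membrane-bound relative, had 49154 and 49260 with BMP2, against 34902 with LOXL2 and 29768 untreated, and rose by 0.61 ± 0.09 (adjusted p = 0.0463), a call lost with the mean over the probes of each gene (adjusted p = 0.0513). Pdia3, the isomerase that works with both, had 23903 and 23006 with BMP2, against 15861 with LOXL2 and 14411 untreated, and rose by 0.63 ± 0.06 (adjusted p = 0.0302). No groups overlapped among these 3 genes, where 38.1% of all genes had both BMP2 arrays above both others.

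The disulphide isomerase Pdia4 had 9607 with BMP2 plus LOXL2 and 8284 with BMP2, against 4776 with LOXL2 and 3940 untreated. It rose by 1.04 ± 0.06 (adjusted p = 0.0219), the largest effect of the ER arm. Pdia6, which attenuates PERK and IRE1 signalling, had 258783 and 248674 with BMP2, against 195758 with LOXL2 and 178971 untreated. It rose by 0.44 ± 0.06 (adjusted p = 0.0416), and its second, dimmer probe gave 1.02, so the 2 probes disagree on the size but not the direction.

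The HSP90 of the ER, Hsp90b1 (GRP94), had 185927 with BMP2 plus LOXL2 and 185430 with BMP2, against 132137 with LOXL2 and 116159 untreated. It rose by 0.58 ± 0.08 (adjusted p = 0.042). The J-domain cochaperones of BiP include Dnajb9 and Dnajb11. Dnajb9, which also represses IRE1, had 7577 and 7021 with BMP2, against 4860 with LOXL2 and 4011 untreated, and rose by 0.72 ± 0.07 (adjusted p = 0.0328), with 0.54 from a second probe. Dnajb11 had 16998 and 14813 with BMP2, against 11403 with LOXL2 and 9413 untreated, and rose by 0.62 ± 0.06 (adjusted p = 0.0307). A second Dnajb11 probe was well above background on 2 arrays only and gave 2.41.

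Hspa5, which encodes BiP, the main ER chaperone and the usual gauge of the unfolded protein response, was not among the called genes. It had 229888 with BMP2 plus LOXL2 and 220810 with BMP2, against 203507 with LOXL2 and 176122 untreated. The order of the arrays was that of most members, but the effect was 0.25 ± 0.07 (adjusted p = 0.104), or 1.19-fold. It was called as rising with normexp background correction (adjusted p = 0.0375) and with eBayes with trend and robust settings (adjusted p = 0.00192). The Hspa5 probe is at chr2:34631913-34631972 on mm9. The other 5 chaperones not called had effects of 0.53 for Hyou1 (a BiP exchange factor), 0.46 for Dnajc3 (a BiP cochaperone), 0.37 for Manf (a secreted BiP partner), 0.21 for Sdf2l1 (of an ER chaperone complex) and 0.06 for Creld2 (an ER protein induced by stress). Their adjusted p-values ran from 0.0553 for Hyou1 to 0.592 for Creld2. Of 8 alternative settings, 3 called each of Hyou1 and Dnajc3, 2 called Manf, and none called Sdf2l1 or Creld2.

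None of the 5 XBP1 and ERAD genes was called, and their median effect was 0.19. With eBayes with trend and robust settings Xbp1, Herpud1, Edem1 and Sel1l were called as rising, and with normexp background correction Herpud1 was. Xbp1, the transcription factor downstream of IRE1, had 48140 with BMP2 plus LOXL2 and 44939 with BMP2, against 42569 with LOXL2 and 38959 untreated. The groups did not overlap, yet the effect was 0.19 ± 0.05 (adjusted p = 0.104). Sel1l and Syvn1, which form the HRD1 ubiquitin ligase complex, had effects of 0.29 and 0.06, Herpud1, which assembles it, 0.24, and Edem1, which hands over misfolded glycoproteins, 0.19. At an unadjusted p under 0.05, 29 of the 39 members had a BMP2 effect, against 42.9% of all genes.

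Each BMP2 pair was also read singly, without a test, since the pairs share no array. Without LOXL2 the median BMP2 difference over the members was 0.65, and under LOXL2 it was 0.49. By arm, the ATF4 medians were 0.86 and 0.55, and the ER medians 0.48 and 0.36. At least 1.5-fold higher in both pairs were 13 members, against 5.3% of all genes. These were Trib3, Vldlr, Ppp1r15a, Chac1, Atf3, Ddit3, Atf5, Mthfd2 and Slc3a2 of the ATF4 arm, and Pdia4, Calr, Dnajb9 and Pdia3 of the ER arm. No member was 1.5-fold lower in both, where 6.02% of all genes were.

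**Figure D3:**
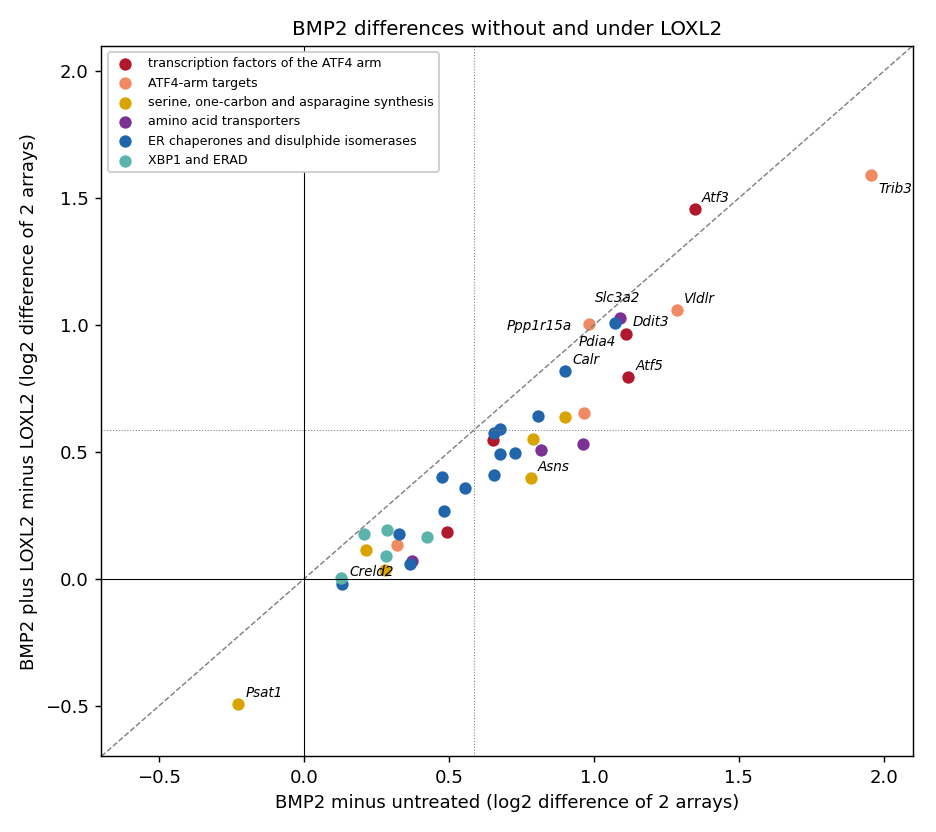
BMP2 difference of each gene without LOXL2 (x axis) and under LOXL2 (y axis), both log2 differences of 2 arrays, with dotted lines at 1.5-fold and a dashed line where both are equal. Trib3 lies farthest right at 1.96, Atf3 and Ppp1r15a are above the dashed line, and the other 37 genes are below it.

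The signed BMP2 difference was lower under LOXL2 than without it for 37 of 39 members, against 49.3% of all genes. One of the 37 is Psat1, whose difference was further from 0 under LOXL2 (-0.49) than without it (-0.23). A LOXL2 difference that was lower under BMP2 gives the same count by construction, since both are the same contrast of the arrays. This contrast was not tested, because a model with the interaction leaves no residual degree of freedom. The gap was widest for Slc7a5, with 0.53 under LOXL2 and 0.96 without it. For Creld2 the difference was -0.02 under LOXL2 and 0.13 without it.

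LOXL2 had no called effect on any member, and with limma 0 of the 24041 genes (0%) passed. At an unadjusted p under 0.05 there were 7 members (Ddit3, Ppp1r15a, Slc7a11, Slc3a2, Dnajb11, Pdia4 and Herpud1) and 6.18% of all genes, and the adjusted p-values of the members ran from 0.789 to 0.995. With eBayes with trend and robust settings, 14 genes passed, of which 0 were members. All 39 members were nevertheless higher on the LOXL2 array than on the untreated one, against 48.1% of all genes. These differences were small, with a median of 0.28 and a range from 0.10 for Sesn2 to 0.57 for Slc7a11, and none reached 1.5-fold (1.8% of all genes did).

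Between the 2 arrays with BMP2, 36 members were higher with LOXL2 added, against 49.2% of all genes, with a median of 0.08 and a range from -0.09 to 0.27. The exceptions were Sesn2, Edem1 and Canx. The LOXL2 difference without BMP2 and the BMP2 difference without LOXL2 share the untreated array, which was the lowest of the 4 for 38 members, against 29.5% of all genes. Treatment and array cannot be told apart there. With quantile normalization, and with each of the other 7 settings tried, 39 of 39 members were higher with LOXL2 than untreated. Every setting reads the same 2 arrays, so this repeats the same comparison and adds no replicate.

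**Figure D4:**
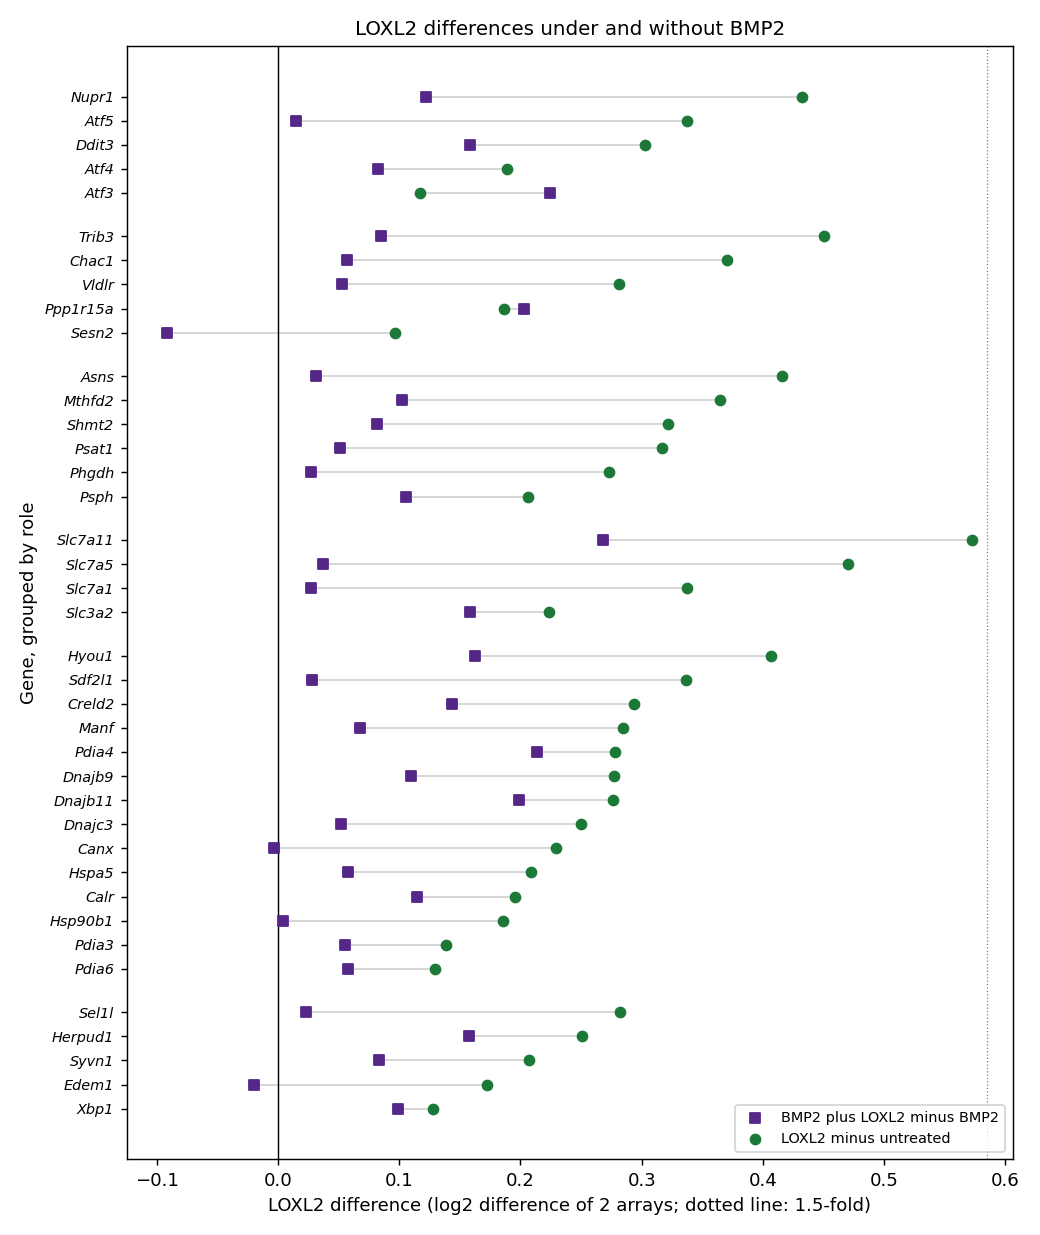
LOXL2 difference of each gene under BMP2 (squares, BMP2 plus LOXL2 minus BMP2) and without it (circles, LOXL2 minus untreated), as log2 differences of 2 arrays. All 39 circles lie right of 0 and left of the dotted line at 1.5-fold, and 36 of the squares lie right of 0.

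**Figure D5:**
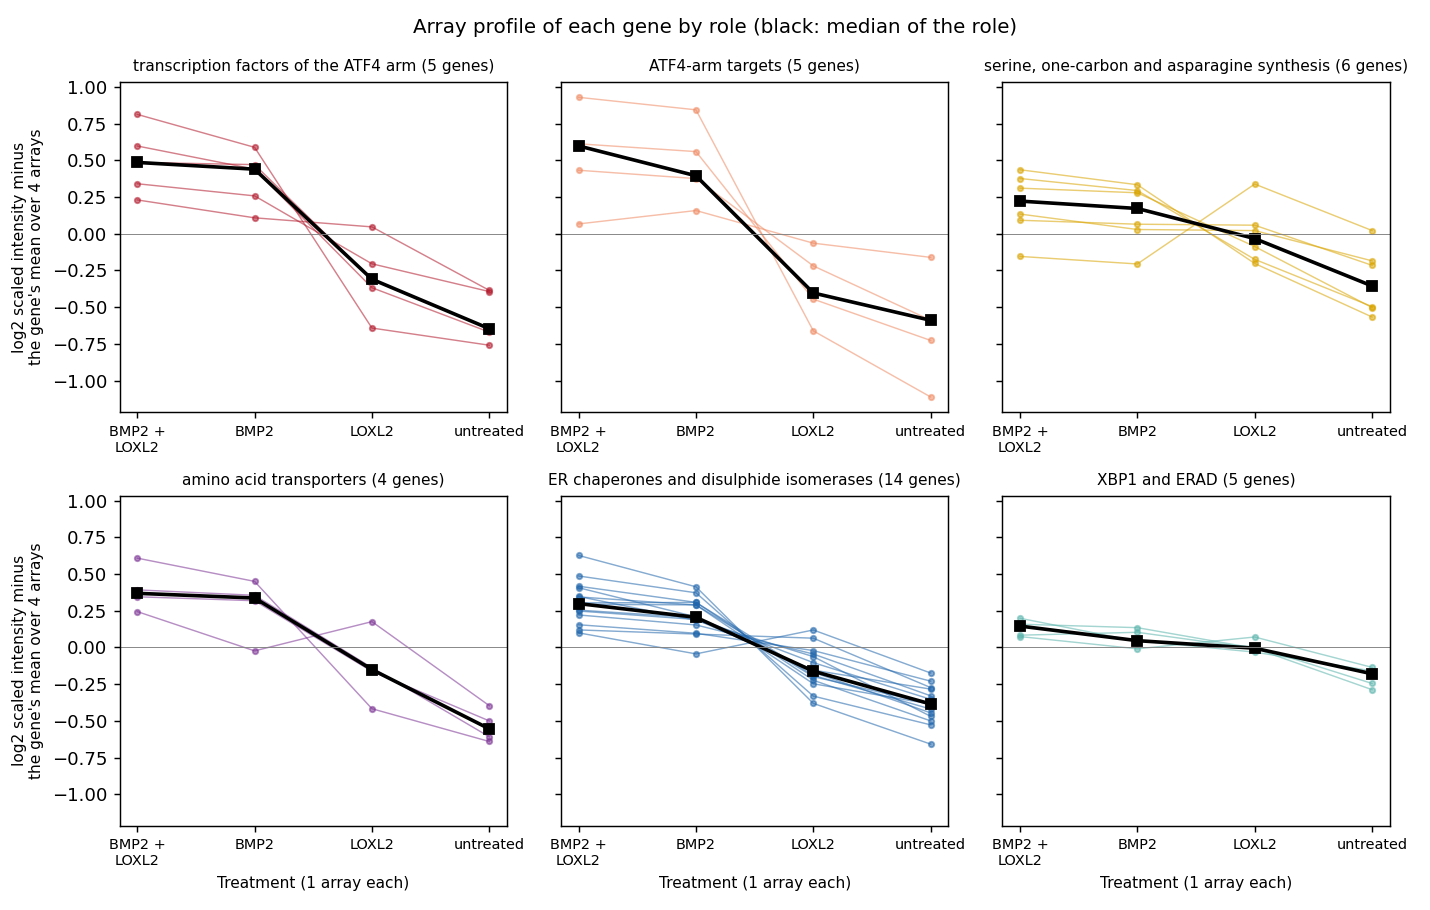
Profile of each gene over the 4 arrays (log2 scaled intensity minus the gene's mean over the arrays), in 1 panel per role, with the median of the role in black. The step between the BMP2 and LOXL2 arrays is steepest for transcription factors and stress targets and shallowest for XBP1 and ERAD, and the line that peaks at LOXL2 among the synthesis genes is Psat1.

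Other genes of the same pathways were read from 4 lists of 81 genes, of which 24 rose and 0 fell with BMP2, where 10.3% of all genes rose. These lists too were chosen with earlier results known, so their counts are not independent evidence either. The sensors, kinases and partner factors gave 6 of 18. The partner factors Cebpb and Cebpg, which pair with ATF4 on the response element, rose by 0.95 and 0.74. Of the ER sensors, Atf6 rose by 0.63 and Ern1 (IRE1) by 0.54. The kinases Eif2ak3 (PERK) and Eif2ak4 (GCN2), each at -0.06, and the ER-anchored factor Creb3l1, at 0.02, were not called (adjusted p = 0.449, 0.461 and 0.813), and Creb3l1 was below 0 with quantile normalization.

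The counts that follow stand against 10.3% of all genes that rose. The other amino acid response genes gave 8 of 19, led by Gdf15, a stress hormone, with 1.58, Aldh1l2, of mitochondrial folate metabolism, with 1.25, and Slc6a9, a glycine transporter, with 1.19. The aminoacyl-tRNA synthetases, which charge tRNAs and of which several are ATF4 targets, gave 3 of 20, a share not far above that of all genes. These were Sars with 0.84, Aars with 0.62 and Nars with 0.49. Aars read as the mean of its 2 probes was -0.28 and not called, and Nars lost its call in that setting too (limma adjusted p = 0.054). Quantile normalization left Aars, Nars and Slc6a9 uncalled (limma adjusted p = 0.0686, 0.0632 and 0.0528). The eBayes trend and robust settings left Aldh1l2 and Slc6a9 uncalled (adjusted p = 0.0539 and 0.06). No gene of these lists was called with no filter on dim probes. The other ER folding and ERAD genes gave 7 of 24, led by Ero1l, the oxidase that recharges disulphide isomerases, with 2.03, Derl1, of the ERAD channel, with 0.76, and Sil1, a BiP exchange factor, with 0.61.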

How the data were processed

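Single-colour arrays of 4 RNA samples were used, 1 per treatment. The scanner files deposited by the authors hold an intensity per spot, from 100 ng of total RNA. The submitters' processing notes name Agilent Feature Extraction, version 10.7.3.1. Per the file headers, local background correction was off, spatial and multiplicative detrending were on, and signals near background were replaced by surrogates. All arrays share 1 slide and 1 scan time, and array position cannot be told apart from treatment. The deposited value table holds unscaled linear intensities (column medians 40.5 to 41.5) that equalled the mean processed signal within 0.1% for 99.52% to 99.53% of probes.

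Intensities were put on the log2 scale from the deposited processed signals, less each array's 75th percentile. Control spots and 109 to 144 outlier spots per array were left out, no spot was saturated, and the spots of a probe were averaged. Probes well above background on at least 2 arrays were kept, and the brightest probe stood for a gene. Symbols came from the files and from RefSeq accessions, which matched 26762 of 55681 probes and all 48 of the members. Effects of BMP2 and LOXL2 were fitted together with limma 3.58.1 under R 4.3.3 (1 residual degree of freedom, prior 1.72, median SE 0.0615), two-sided, with p-values adjusted over 24041 genes by the Benjamini-Hochberg method. The fit was also run on simulated data with independent noise and no LOXL2 effect or interaction. Such data cannot show how reliable calls on unreplicated arrays are. The p-values test the BMP2 and LOXL2 effects. Their error term is the departure from additivity over 4 arrays, moderated by the prior from all genes. It does not hold the spread between cultures, and the number of arrays limits the precision.

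The members and all gene lists were chosen with earlier results of these data known. Named with values on all arrays are the called members, those at least 1.5-fold changed in both pairs of a protein, and Atf4, Ddit3, Trib3, Asns, Xbp1 and Hspa5. From the other lists, up to 3 called genes per list and 5 sensors or factors are named. The alternatives tried were median and quantile scaling, normexp with an offset of 50, no filter, a filter on all 4 arrays, the value table, the mean over a gene's probes, and eBayes with trend and robust settings.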

Additional observations from a re-analysis of the deposited data

Results flagged for a closer look

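For 4 members a difference had opposite signs in the 2 pairs of arrays, and in no case was the contrast between the pairs tested. The LOXL2 difference of Sesn2 was -0.0912 under BMP2 and 0.0968 without it, that of Edem1 was -0.0197 and 0.172, and that of Canx was -0.0031 and 0.230. The BMP2 difference of Creld2 was -0.0196 under LOXL2 and 0.130 without it. Creld2 was printed on 10 spots, whose SD ran from 0.0198 to 0.0302 on the log2 scale. Its intensity was 59333 with BMP2 plus LOXL2 and 53723 with BMP2, against 60145 with LOXL2 and 49082 untreated.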

How the results depend on the processing

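No paired analysis was possible because each treatment has 1 array and the labels give no replicate numbers, and leaving out an array leaves no residual degree of freedom. The number of rising members was 11 in the ATF4 arm and 8 in the ER arm. With quantile normalization it was 7 and 5, Atf4, Atf5, Chac1, Shmt2, Hsp90b1, Canx and Pdia6 no longer being called (adjusted p 0.0514 to 0.0782). With no filter on dim probes it was 0 and 0, over 35077 genes and with a smallest adjusted p of 0.09 in limma. The ER arm gave 13 with normexp and 16 with eBayes trend and robust settings. In both settings 1 member of the ATF4 arm, Psat1, fell. The ATF4 arm gave 16 rising members with normexp. With trend and robust settings 13 members of the 2 arms gained a call, Psat1 included. The share of all genes that rose was 20.3% with normexp and 24.4% with trend and robust settings, against 10.3% in the main fit. The other 4 alternatives stayed within 1.5 times of 11 and 8, and among them the mean over probes lost the call of Canx (limma adjusted p = 0.0513). Of 8 alternatives, 7 called Atf3, Calr, Ddit3, Dnajb11, Dnajb9, Mthfd2, Pdia3, Pdia4, Ppp1r15a, Slc3a2, Trib3 and Vldlr, the exception being no filter. Among members not called in the main fit, Slc7a1 was called by 4 of the 8, and Slc7a5, Hyou1 and Dnajc3 by 3. Manf, Sesn2, Hspa5, Herpud1 and Psat1 (falling) were called by 2, and Asns, Nupr1, Psph, Xbp1, Edem1 and Sel1l by 1. No alternative called Phgdh, Slc7a11, Sdf2l1, Creld2 or Syvn1. Over all genes, 2485 rose and 2398 fell, against 1913 and 2208 with quantile normalization, 4873 and 4213 with normexp and 5854 and 4535 with trend and robust settings. Signs turned with quantile normalization for the BMP2 effects on Creld2 (-0.119), Syvn1 (-0.0534) and Creb3l1 (-0.0268), with normexp for the LOXL2 effect on Sesn2 (-0.0246), and with the mean over probes for the BMP2 effect on Aars (-0.276), and none of these values was called. The causes were not tested.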
